A study of Mus musculus with 9 samples.

Results

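Intermediate filament transcripts were followed in Neuro2a cells, a mouse neuroblastoma line, treated with a xyloside or with its vehicle. The 9 genes were taken by symbol from the 24972 gene names of the expression table, by a rule that uses no measured value. They are Nefl, Nefm, Nefh and Ina, which encode neurofilament subunits, Vim and Nes, which encode vimentin and nestin, and Lmna, Lmnb1 and Lmnb2, which encode the nuclear lamins. All 9 were found in the table.

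The wild-type cells, grown in DMEM with serum, received DMSO, 4-methylumbelliferyl xyloside at 500 nM (LCX, the low xyloside concentration) or the same xyloside at 1 mM (HCX, the high concentration). This xyloside primes the synthesis of free glycosaminoglycan chains in competition with proteoglycan core proteins. RNA was taken after 48 h per the sample labels (a figure legend of the study names a longer treatment), and 3 stranded polyadenylated RNA libraries were sequenced per group. Separate cultures are not named in the labels, so p-values measure only the spread between these libraries, which may be technical.

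Intermediate filaments are built from coiled-coil proteins that pair and assemble without nucleotides into rope-like polymers. In neurons, the light, medium and heavy neurofilament proteins and alpha-internexin (Ina) copolymerize and set the calibre of axons. Vimentin and nestin form the filaments of dividing neural progenitors, where nestin needs a partner such as vimentin to polymerize. The lamins form the meshwork under the inner nuclear membrane, with A-type lamins made from Lmna and B-type lamins from Lmnb1 and Lmnb2.

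The deposited values are normalized counts, which summed to between 34949840 and 36667123 per library, and 12832 to 13040 genes reached 10 in each library. Groups were compared with limma on log2(value + 1), over 13179 genes that reached 10 in 3 or more libraries. A gene was called at a Benjamini-Hochberg adjusted p under 0.05. A log2 fold change on this scale understates the change of a gene with low values. For 1 gene alone, 3 libraries against 3 cannot give an exact two-sided permutation p under 0.1, so each p comes from the limma fit. The comparisons of HCX with DMSO and with LCX share the 3 HCX libraries and are not independent. Over all genes, HCX against DMSO gave 755 called higher and 1781 called lower, a split that became 1116 and 1128 with RLE scaling and 1307 and 966 with library size scaling. By RLE, the level of the DMSO libraries was 2.93% above that of the rest.

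Of the genes called in an HCX comparison, start regions are shown for Vim, Ina and Lmnb2 (higher) and Nes (lower, called only against LCX). The sequence next to each start can so be read beside the values. The regions are RefSeq windows on GRCm38.p6, 5′ to 3′ on the strand of the gene. Windows of 5 of the 9 genes were kept, and none was kept for Lmnb1, which was also called only against LCX. Capitals mark matches on either strand to TATAAA (the TATA box), to CCAAT (the CCAAT box), to GGGCGG (the core of the GC box) or to TGANTCA (the AP-1 motif). A GC box on the other strand reads as CCGCCC. Because an annotated exon covers the Vim window, Vim is shown for 30 bases only, at chr2:13574267-13574296 on the plus strand, Ina at chr19:47014431-47014680 on the plus strand, Lmnb2 at chr10:80918246-80918495 on the minus strand and Nes at chr3:87970843-87971077 on the plus strand.
Vim: tcctaacagtgtTATAAAagcagcgccctt
Ina: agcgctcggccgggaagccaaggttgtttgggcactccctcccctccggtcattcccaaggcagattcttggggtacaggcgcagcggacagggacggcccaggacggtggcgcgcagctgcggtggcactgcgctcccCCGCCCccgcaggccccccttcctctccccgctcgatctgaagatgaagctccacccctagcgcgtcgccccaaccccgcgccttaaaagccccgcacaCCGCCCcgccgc
Lmnb2: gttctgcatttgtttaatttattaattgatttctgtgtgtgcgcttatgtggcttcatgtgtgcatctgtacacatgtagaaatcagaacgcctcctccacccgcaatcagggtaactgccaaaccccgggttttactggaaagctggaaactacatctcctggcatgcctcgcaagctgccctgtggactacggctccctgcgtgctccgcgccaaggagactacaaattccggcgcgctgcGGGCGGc
Nes: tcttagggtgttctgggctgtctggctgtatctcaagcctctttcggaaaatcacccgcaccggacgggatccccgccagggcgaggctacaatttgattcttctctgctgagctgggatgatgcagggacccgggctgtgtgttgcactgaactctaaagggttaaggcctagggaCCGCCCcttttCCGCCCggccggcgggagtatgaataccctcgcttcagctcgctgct

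Counted back from the start site, TATAAA lay at -32 to -27 in Vim. TATAAA was found in 12.4% of all 32851 windows searched, which hold 250 bases upstream of a start site. The unprinted part of the Vim window also held CCAAT at -196 to -192 and, on the other strand, at -94 to -90, a motif found in 33.8% of windows. The GC box core was in 32.7% of windows. It lay on the other strand at -111 to -106 and -12 to -7 in Ina, on the other strand at -73 to -68 and -62 to -57 in Nes, and at -7 to -2 in Lmnb2. A second Lmnb2 window, with the start site at 80906412, held none of the 4 motifs. The AP-1 motif was in 6.75% of windows and in none of those of Vim, Ina, Lmnb2 and Nes. A match is a description of the letters and not of binding.

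Vimentin was the most abundant of the 9 transcripts and the light and medium neurofilament transcripts were the scarcest. Levels between genes are given as normalized counts per kilobase of the longest coding transcript. In DMSO, Vim stood at 12987 ± 606 per kilobase (SD, n = 3 libraries), Ina at 2139 ± 102, Lmna at 2016 ± 153, Nefh at 1822 ± 100.4, Lmnb1 at 1300.2 ± 34.4, Lmnb2 at 922 ± 56.8 and Nes at 751 ± 15.4. Nefm stood at 7.37 ± 2.42 per kilobase. In this order the DMSO libraries of Ina overlapped those of Lmna, and those of Lmna overlapped those of Nefh, while the other neighbours down to Nefm did not overlap. With the union of all exons as the length, Lmna fell to 1089.7 per kilobase, below Lmnb1 at 1247.9, and Vim stood at 6005. Peripherin (Prph), a neuronal intermediate filament gene outside the set, was named here for its level, 38934 ± 2085 per kilobase in DMSO, which was above that of Vim.

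**Figure D1:**
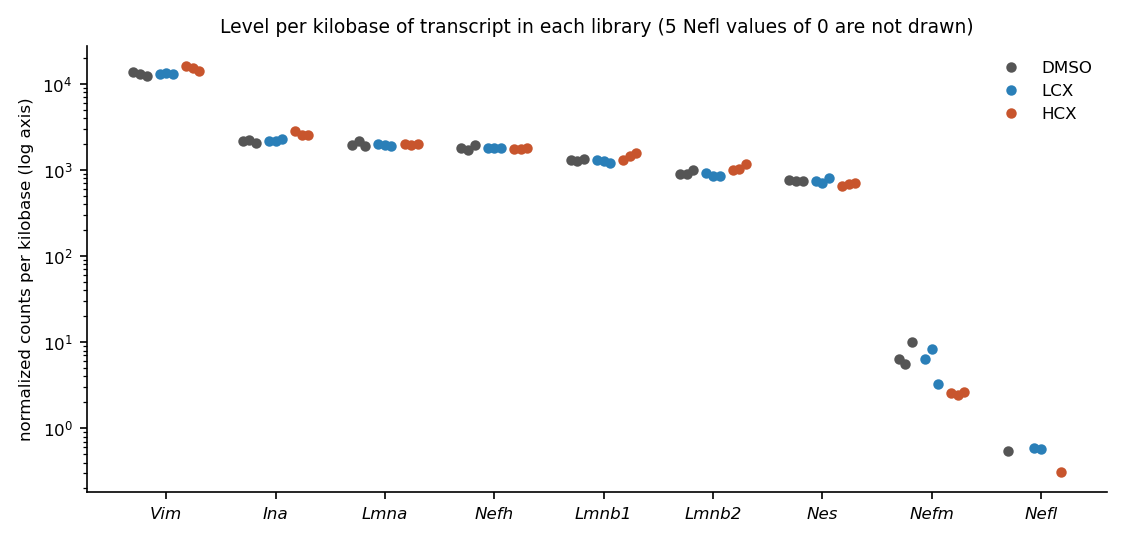
Level per kilobase of the longest coding transcript (log axis, normalized counts per kilobase, 5 Nefl values of 0 not drawn) for the 9 genes, 3 libraries per group. Vim stood highest at 12987 per kilobase in DMSO, and Nefm at 7.37 stood far below the other genes tested.

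Of the neurofilament transcripts, Ina rose in HCX and Nefh was not called, while Nefm was low in every group and below 10 in every HCX library. Nefl, the light subunit around which neurofilaments assemble, was listed at 1.86, 0 and 0 normalized counts with DMSO, at 2.01, 1.94 and 0 with LCX and at 1.05, 0 and 0 with HCX. It was listed at 0 in 5 of 9 libraries, did not pass the filter and was not tested. Nefl lies at chr14:68083863-68089095 on the plus strand and shares 1108 exon bases with Nefm on the minus strand.

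Ina, which lies at chr19:47014698-47025327 on the plus strand, was at 6968, 7241 and 6586 normalized counts in DMSO. In LCX it was at 7079, 7108 and 7402, and in HCX at 9158, 8282 and 8264. Every HCX library was above every other library, and the DMSO and LCX libraries overlapped. Against DMSO it rose by 0.31 on the log2 scale (standard error 0.05, 95% interval 0.20 to 0.41, adjusted p = 0.000254, limma), which is 23.6% on the means. Against LCX it was 0.25 (0.15 to 0.35, adjusted p = 0.00164). Both calls were kept under all 18 alternatives of processing. In bulk RNA, a change in the share of cells of a type and a change in RNA per cell cannot be told apart. Of the exon bases of Ina, 456 (14.1%) are also exon of Nt5c2 on the other strand, a gene of purine nucleotide breakdown, and whether counting used strand is not given in the sources used here. Nt5c2 was also higher in HCX, by 0.20 on the log2 scale against DMSO (adjusted p = 0.00644), with means 409 normalized counts apart where those of Ina were 1636 apart. The part of this overlap in the Ina values was not tested.

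Nefm, the medium subunit, lies at chr14:68082590-68124846 on the minus strand and was low throughout. Its values were 23.6, 20.5 and 37.3 with DMSO, 23.4, 30.99 and 12.1 with LCX and 9.39, 9.05 and 9.65 with HCX. All HCX libraries were below all others and below 10, so that Nefm passed the filter only through DMSO and LCX. Its fit is therefore given as a description and not as support for a difference. Its log2 fold change from DMSO was -1.40 (standard error 0.45, 95% interval -2.33 to -0.46, adjusted p = 0.0339, limma). Against LCX it was -1.06 (-2.00 to -0.13, adjusted p = 0.11), which did not pass. The call against DMSO was lost with limma-voom (adjusted p = 0.0505) and without DMSO replicate 1 (0.0683), DMSO replicate 3 (0.135), HCX replicate 1 (0.0633), HCX replicate 2 (0.0696) or HCX replicate 3 (0.059). Nefm and Nefl share 19.2% of the exon bases of Nefm, and Nefl reached at most 2.01 in any library. The part of this overlap in the Nefm values was not tested. With a pseudocount of 10 the log2 fold changes of Nefm were -0.91 and -0.69 (adjusted p = 0.0309 and 0.11).

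Nefh, the heavy subunit that carries the long phosphorylated tail, lies at chr11:4938754-4948064 on the minus strand. It had 7257, 6883 and 7684 with DMSO, 7160, 7263 and 7137 with LCX and 7052, 6912 and 7157 with HCX, so the groups overlapped. The log2 fold change was -0.05 against DMSO (95% interval -0.14 to 0.05, adjusted p = 0.522) and -0.03 against LCX (adjusted p = 0.702). It turned to 0.01 against DMSO with library size scaling, while both values stayed uncalled.

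**Figure D2:**
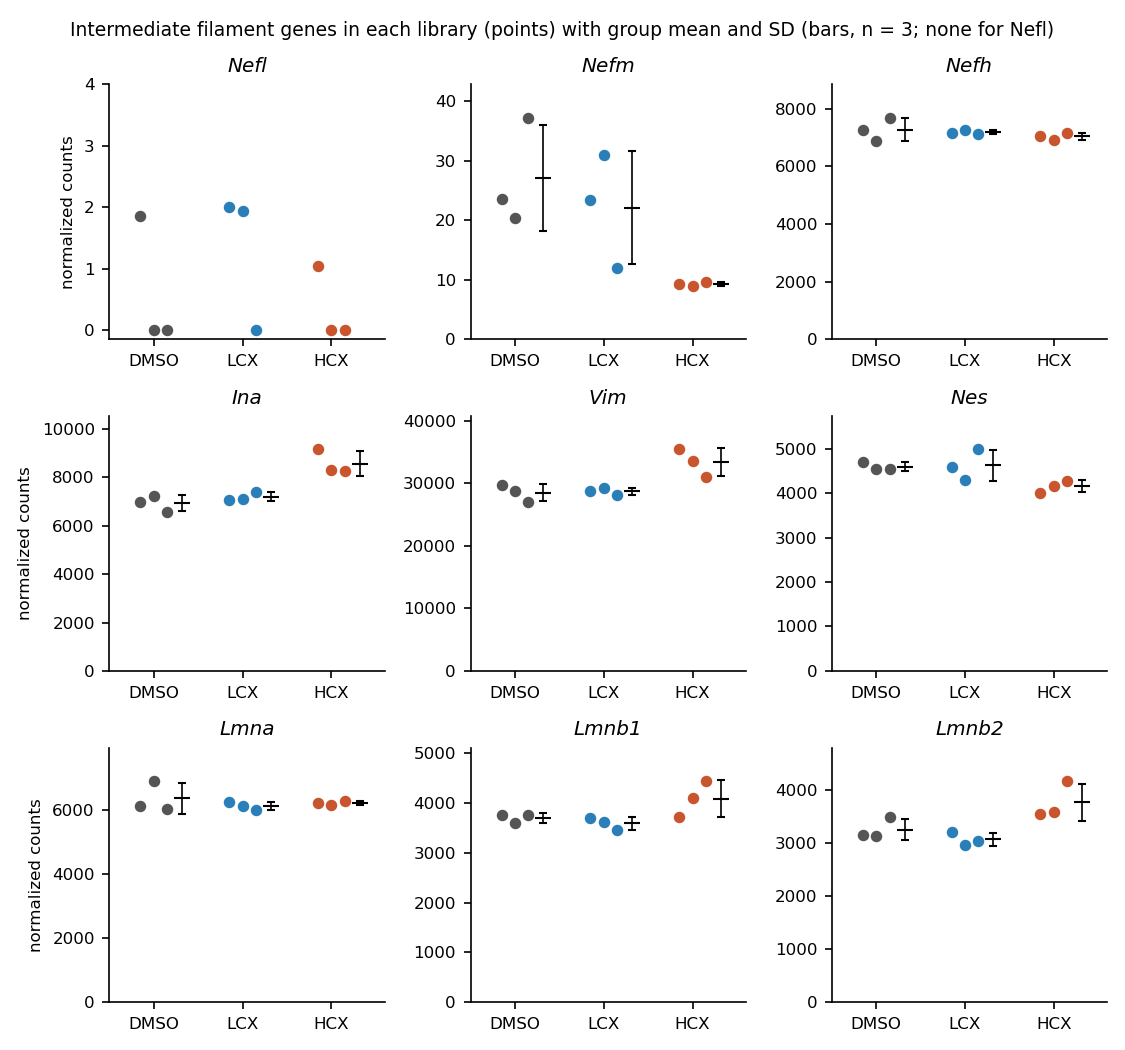
Normalized counts of each gene in each library (points, 3 per group) with group mean and SD (none for Nefl), each panel on its own linear axis from 0. For Ina, the HCX libraries at 8264 to 9158 sit above every DMSO and LCX library, and for Nefm, those at 9.05 to 9.65 sit below them.

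Within a library, the ratio of 2 transcripts does not depend on how the library was scaled. Its level, though not its log2 difference between groups, does depend on the gene lengths used. The log2 ratio of Ina to Nefh per kilobase was 0.24, 0.38 and 0.08 with DMSO, 0.29, 0.27 and 0.35 with LCX and 0.68, 0.56 and 0.51 with HCX. The HCX values lay above all others, and Ina made up 59.9% of the summed neurofilament level per kilobase in HCX, 53.9% in DMSO and 55.2% in LCX. Nefh held 45.9% of that sum in DMSO and 40.0% in HCX, and Nefm held 0.186% and 0.0577%. The log2 ratio of Nefm to Nefh was -8.15, -8.27 and -7.57 with DMSO, -8.14, -7.75 and -9.09 with LCX and -9.44, -9.46 and -9.42 with HCX. No ratio to Nefl was formed, because Nefl was at or near 0, and the ratio to Nefh was chosen after the values were seen.

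Vimentin transcripts rose in HCX and nestin transcripts were lower than in LCX. Vim, at chr2:13573927-13582826 on the plus strand, had 29670, 28723 and 27047 normalized counts in DMSO. It had 28705, 29299 and 28174 with LCX and 35429, 33612 and 30961 with HCX. The lowest HCX library was above the highest of all others. On the log2 scale the rise was 0.23 against DMSO (95% interval 0.12 to 0.33, adjusted p = 0.00385, limma) and 0.21 against LCX (0.11 to 0.32, adjusted p = 0.00648). The means were 17% and 16% higher in HCX. Both calls were kept under all 18 alternatives.

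Nes, at chr3:87971078-87980451 on the plus strand, had 4709, 4545 and 4547 with DMSO, 4598, 4299 and 4989 with LCX and 4011, 4171 and 4282 with HCX. Each HCX library was below every other library. Its log2 fold change was -0.15 in both comparisons, with adjusted p = 0.0542 against DMSO (95% interval -0.26 to -0.04), which missed the threshold, and 0.0488 against LCX (-0.26 to -0.04). The call against LCX was kept in 8 of 18 alternatives. It was lost with library size scaling (adjusted p = 0.0819) and without DMSO replicate 1 (0.0578), LCX replicate 1 (0.116), LCX replicate 3 (0.273), HCX replicate 1 (0.147) or HCX replicate 2 (0.0939). Against DMSO Nes was called without LCX replicate 2 (0.0473), LCX replicate 3 (0.0434) or HCX replicate 3 (0.0451). The log2 fold change was -0.09 against DMSO with library size scaling and -0.10 against LCX without LCX replicate 3. The log2 ratio of Nes to Vim per kilobase was -4.14, -4.14 and -4.05 with DMSO, -4.12, -4.25 and -3.98 with LCX and -4.63, -4.49 and -4.34 with HCX. For this ratio the HCX libraries were all below the others, at 0.0448 on average where DMSO stood at 0.0579.

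**Figure D3:**
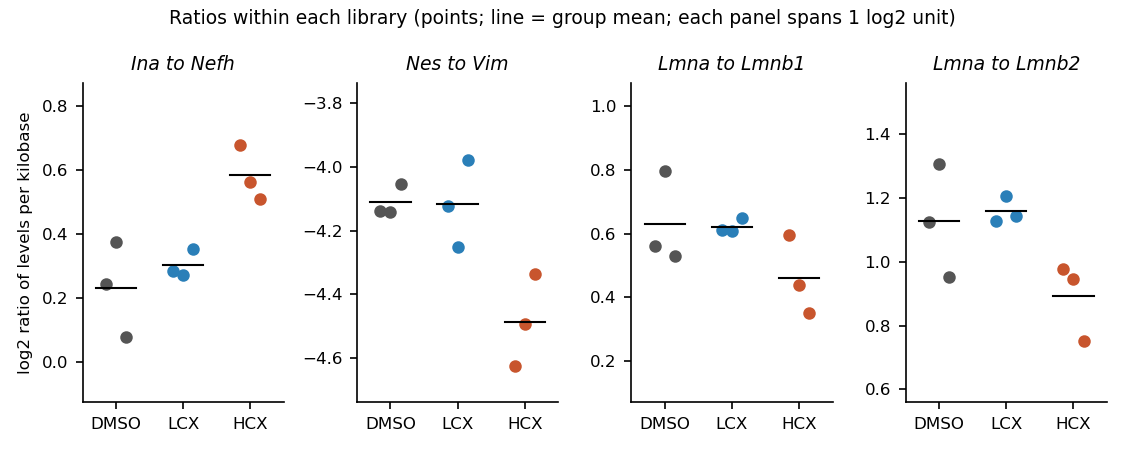
Log2 ratios of transcript levels per kilobase within each library, 3 libraries per group. HCX libraries lie above the others for Ina to Nefh (0.51 to 0.68) and below them for Nes to Vim (-4.63 to -4.34).

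Of the B-type lamin transcripts, Lmnb2 was higher in HCX than in both other groups and Lmnb1 was called higher against LCX, while the A-type lamin transcript was not called in either comparison. Lmnb2 lies at chr10:80901203-80918245 on the minus strand. Its values were 3151, 3128 and 3486 with DMSO, 3209, 2971 and 3038 with LCX and 3539, 3580 and 4173 with HCX, with every HCX library above the others. On the log2 scale it was 0.21 higher than with DMSO (95% interval 0.08 to 0.34, adjusted p = 0.0239) and 0.29 higher than with LCX (0.16 to 0.42, adjusted p = 0.0032). The call against LCX was kept in all 18 alternatives. The call against DMSO was kept in 15 of 18 and was lost without DMSO replicate 1 (adjusted p = 0.0912), DMSO replicate 2 (0.0733) or HCX replicate 3, where the log2 fold change was 0.13 (0.129).

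Lmnb1, at chr18:56707813-56753424 on the plus strand, had 3746, 3584 and 3759 with DMSO, 3691, 3623 and 3447 with LCX and 3714, 4097 and 4440 with HCX. The HCX libraries overlapped those of DMSO and not those of LCX. Its log2 fold change was 0.14 against DMSO (95% interval 0.02 to 0.26, adjusted p = 0.0918), which did not pass, and 0.18 against LCX (0.06 to 0.30, adjusted p = 0.0314). The call against LCX was kept in 12 of 18 alternatives and was lost without any of the LCX libraries (adjusted p 0.0542, 0.0718 and 0.139 for LCX replicates 1, 2 and 3), HCX replicate 2 (0.0778) or HCX replicate 3, where the log2 fold change was 0.12 (0.152). Against DMSO it was called with RLE scaling (adjusted p = 0.0332), library size scaling (0.0241), limma-voom (0.0256) and without HCX replicate 1 (0.0152). Without HCX replicate 3 the log2 fold change against DMSO was 0.08 (adjusted p = 0.365).

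Lmna, at chr3:88480147-88509956 on the minus strand, had 6140, 6915 and 6031 with DMSO, 6260, 6126 and 6000 with LCX and 6223, 6171 and 6287 with HCX. The log2 fold change was -0.03 against DMSO (95% interval -0.13 to 0.08, adjusted p = 0.743) and 0.02 against LCX (adjusted p = 0.796). The value against DMSO turned to 0.01 with RLE scaling and to 0.03 with library size scaling, uncalled. Lmna made up 44.2% of the summed lamin level per kilobase of the longest coding transcript in HCX and 47.5% in DMSO. These shares depend on that length, and with the union of all exons Lmna stood below Lmnb1 in DMSO (1089.7 and 1247.9 per kilobase). The log2 ratio of Lmna to Lmnb2 averaged 0.89 in HCX, 1.13 in DMSO and 1.16 in LCX, and the HCX libraries overlapped those of DMSO and not those of LCX.

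**Figure D4:**
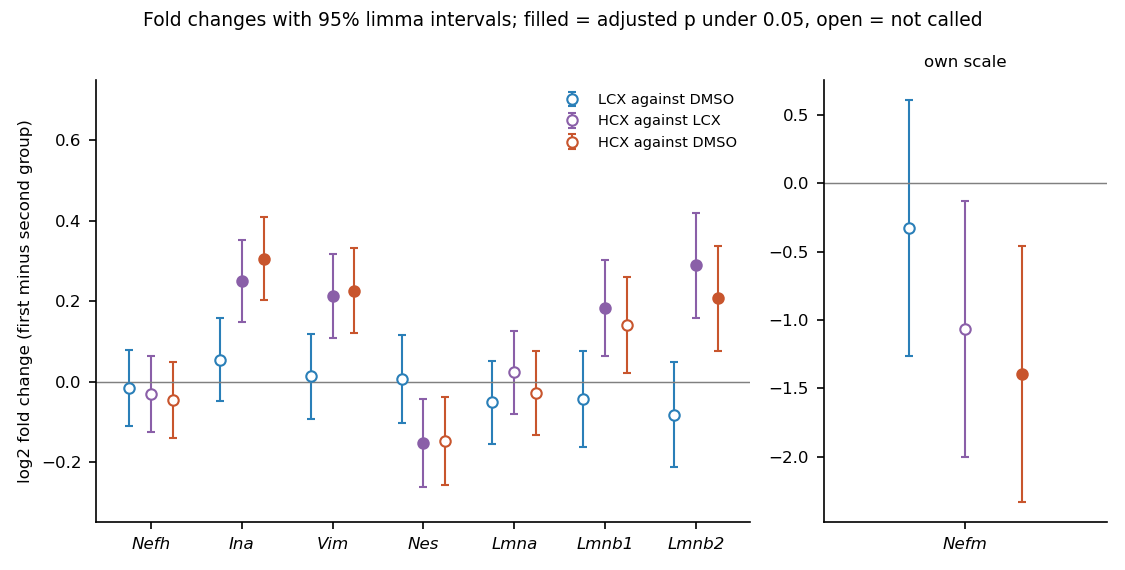
Log2 fold change of each of the 8 genes tested with its 95% limma interval, for HCX against DMSO, HCX against LCX and LCX against DMSO. Ina (0.31 against DMSO) and Vim (0.23) lie above 0 in both HCX comparisons, and the LCX intervals all cross 0.

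Counted together are the 7 genes that reached 10 in every library, which leaves out Nefm, since it passed the filter only through the groups in which it was high. In HCX against DMSO, limma called 3 of the 7, where it called 19.2% of all 13179 genes. Ina, Vim and Lmnb2 were higher (5.73% of all genes were called higher) and 0 were lower (13.5%). Among the 7, Nes was lower at an unadjusted p under 0.05, and limma-voom also called 0 lower. In HCX against LCX, 5 of the 7 were called, Ina, Vim, Lmnb1 and Lmnb2 higher and Nes lower, where 17.3% of all genes were called, 8.35% higher and 8.95% lower. The median log2 fold change of the 7 genes was 0.14 against DMSO and 0.18 against LCX, beside -0.04 and 0.00 over all genes. The HCX libraries did not overlap those of DMSO for 4 of the 7 (32.8% of all genes), 3 higher (11%) and 1 lower (21.8%). They did not overlap those of LCX for 5 (36.5%), 4 higher (18.3%) and 1 lower (18.2%). None of the 7 reached a 2-fold difference, which with a call was seen in 0.819% of all genes against DMSO (0.706% lower) and 0.797% against LCX (0.653% lower).

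In LCX none of the 8 genes tested was called against DMSO. Limma called 0 of 8, where it called 0% of all genes, 0 of the 8 had an unadjusted p under 0.05 (807 of 13179 genes did) and limma-voom also called 0 of the 8. The smallest adjusted p of the 8 was 0.839. For LCX against DMSO, the log2 fold change was 0.05 for Ina, 0.01 for Vim, 0.01 for Nes, -0.02 for Nefh, -0.05 for Lmna, -0.04 for Lmnb1 and -0.08 for Lmnb2. The 95% intervals of these 7 lay between -0.21 and 0.16. Nefm, at -0.33, had the LCX replicate 3 value of 12.1 beside 23.4 and 30.99, and its difference turned to 0.03 without that library. For 0 of the 8 genes did the LCX and DMSO libraries separate, against 12.9% of all genes (1.75% higher and 11.1% lower in LCX).

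Of 9 other intermediate filament genes tested, 0 were higher and 2 lower in HCX in each comparison. Over all 13179 genes, 5.73% were called higher and 13.5% lower against DMSO, and 8.35% and 8.95% against LCX. No list here or below was tested as a set. Krt8, a keratin of simple epithelia, had 294 ± 31.5 normalized counts with DMSO, 283 ± 20.7 with LCX and 183 ± 18.6 with HCX as mean ± SD of 3 libraries (-0.68 on the log2 scale against DMSO, adjusted p = 0.00112, and -0.63 against LCX). Des, which encodes desmin of muscle, stood at 340.2 ± 23.8, 315 ± 34.6 and 206 ± 53.3 (-0.75, adjusted p = 0.00245, and -0.64). Prph did not change detectably in HCX, with a log2 fold change of -0.02 against DMSO (95% interval -0.12 to 0.08, adjusted p = 0.85). Of the 13 listed genes, Bfsp2, Krt7 and Krt19 were under 3 in every library. The median of the 9 was -0.02 against DMSO and 0.11 against LCX.

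Of 6 cytolinker genes tested, whose large proteins tie filaments to other structures, 0 were higher and 3 lower in HCX in each comparison. Among all genes, 13.5% were called lower against DMSO and 8.95% against LCX. Eppk1, which encodes epiplakin, a plakin that binds keratin and vimentin filaments, had 103 ± 12.6 normalized counts with DMSO and fell to 33.5 ± 8.79 with HCX (-1.62 on the log2 scale, adjusted p = 9.05e-05), and was at -1.40 against LCX. Dst, which encodes dystonin, was at -0.23 (adjusted p = 0.0061) and Plec, which encodes plectin, at -0.16 (adjusted p = 0.023) against DMSO. Against LCX they were at -0.19 and -0.17. Plec lost its call against DMSO with RLE scaling (adjusted p = 0.0937) and library size scaling (0.154), so that 2 cytolinker genes were then lower, and also without DMSO replicate 2 (0.0998), HCX replicate 1 (0.108) or HCX replicate 2 (0.055). Against LCX, Plec lost it without any 1 LCX library or without HCX replicate 1 or 2 (adjusted p 0.0526 to 0.104). Dst lost its call against LCX without LCX replicate 3 (0.13) or HCX replicate 1 (0.107).

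Of 9 genes of filament transport, chaperones and turnover tested, 1 was higher and 2 lower in each HCX comparison. Shares over all genes were 5.73% higher and 13.5% lower against DMSO, and 8.35% and 8.95% against LCX. Kif5a, a kinesin heavy chain gene whose motor carries neurofilaments along axons, stood at 6247 ± 125 in DMSO, 6278 ± 167 in LCX and 5190.1 ± 187 in HCX (-0.27 on the log2 scale, adjusted p = 0.000323, and -0.28 against LCX). Hspb8, a small heat shock protein gene, was at -0.30 (adjusted p = 0.000384) and -0.23, and Bag3, its co-chaperone gene, at 0.19 (adjusted p = 0.00433) and 0.23. These calls were kept in all 18 alternatives.

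Among 16 kinases and partners that act on filament proteins, 2 were higher and 1 lower against DMSO. Against LCX 2 were lower, and the genes called higher, whose count is not reported here, included Cdk5r1, Cdk5r2 and Cdk5. The shares of all genes were 5.73% higher and 13.5% lower against DMSO, and 8.35% higher and 8.95% lower against LCX. Cdk5r2, an activator of the neurofilament kinase CDK5, was at 0.26 against DMSO (adjusted p = 0.00723) and 0.21 against LCX (adjusted p = 0.0263). Cdk5r1, the other activator, at 0.52 and 0.55 (adjusted p = 0.0162 and 0.0137), and Cdk5, at 0.15 (adjusted p = 0.246) and 0.28 (adjusted p = 0.0347), were chosen after their values were seen. Gsk3b was at -0.19 (adjusted p = 0.0109) and -0.16 (adjusted p = 0.0294), and lost both calls with library size scaling (adjusted p = 0.076 and 0.0545). Calls lost when 1 library was left out were those of Cdk5r2 against LCX (adjusted p = 0.129 without LCX replicate 1, 0.128 without LCX replicate 2, and 0.0516 to 0.0678 without any 1 HCX library), of Cdk5r1 (up to 0.0747 without DMSO replicate 2, LCX replicate 1 or HCX replicate 1 or 3) and of Cdk5 (up to 0.146 without LCX replicate 2 or 3 or HCX replicate 1 or 2). Those of Gsk3b were lost without DMSO replicate 1 (0.0686), HCX replicate 1 (0.0511 and 0.112), HCX replicate 2 (0.087) or any 1 LCX library (0.0532 to 0.117). Against LCX, Plk1, a mitotic kinase gene, was called lower (-0.23, adjusted p = 0.0108), and against DMSO it was at -0.14, uncalled. Plk1 lost its call without LCX replicate 3 (adjusted p = 0.0624), and was called against DMSO without DMSO replicate 3 (0.0167).

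Of 5 enzymes that process lamins at their C-terminal end, 1 was higher and 0 lower in each HCX comparison. Among all genes, 5.73% were called higher against DMSO and 8.35% against LCX. The higher gene was Fnta, the alpha subunit of protein farnesyltransferase, at 0.17 against DMSO (adjusted p = 0.0174) and 0.27 against LCX (adjusted p = 0.000684). The call against DMSO was lost without DMSO replicate 1 (adjusted p = 0.0642), DMSO replicate 2 (0.0573) or HCX replicate 1 (0.0536).

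Of 17 nuclear envelope partners of lamins, 0 were higher and 4 lower against DMSO, and 1 was higher and 1 lower against LCX. Shares over all genes were 5.73% higher and 13.5% lower against DMSO, and 8.35% and 8.95% against LCX. Syne1, a nesprin gene whose protein links the nucleus to the cytoskeleton, fell from 7136 ± 212 in DMSO and 6930 ± 211 in LCX to 5160 ± 383 in HCX, at -0.47 (adjusted p = 3.19e-06) and -0.43 (adjusted p = 1.1e-05), and both calls were kept in all 18 alternatives. Tmpo, which encodes lamina-associated polypeptide 2, was at -0.19 (adjusted p = 0.0118) and Banf1 at -0.16 (adjusted p = 0.0418) against DMSO. Sun2 was at -0.16 (adjusted p = 0.0436). With RLE scaling 2 genes of this list were lower against DMSO and with library size scaling 1. Tor1aip1, at 0.19 (adjusted p = 0.031), was the gene higher against LCX. Tmpo lost its call without DMSO replicate 1 (adjusted p = 0.0726) or HCX replicate 1 (0.0504). Banf1 and Sun2 kept theirs in 6 of 18 alternatives each, with adjusted p up to 0.207 for Banf1 and 0.216 for Sun2, both with limma-voom. Among the fits without 1 library, the highest was 0.192 for Banf1 (without DMSO replicate 3) and 0.187 for Sun2 (without HCX replicate 1). Tor1aip1 lost its call without any 1 LCX library (0.0726 to 0.104) or without HCX replicate 1 (0.0591) or 3 (0.105).

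Of 9 tested transcription factors linked to nestin, vimentin or neurofilament genes, 4 were higher and 1 lower against DMSO, and 2 higher and 1 lower against LCX. All genes gave 5.73% higher and 13.5% lower against DMSO, and 8.35% and 8.95% against LCX. Sox11, a factor of immature neurons, had 2790.3 ± 210.4 normalized counts with DMSO and rose to 3561 ± 523 with HCX (0.34 on the log2 scale, adjusted p = 0.0052), and was at 0.45 against LCX (adjusted p = 0.000675). Rest, a repressor of neuronal genes, was at 0.42 against DMSO (adjusted p = 0.00512) and 0.27 against LCX (adjusted p = 0.0591). Jun and Fos, which pair to form AP-1, were at 0.22 and 0.42 against DMSO (adjusted p = 0.00623 and 0.0192) and at 0.17 and 0.28 against LCX (adjusted p = 0.0273 and 0.113). Fos lost its call against DMSO without DMSO replicate 3 (0.111) or HCX replicate 2 (0.0831), and Jun its call against LCX without LCX replicate 1 (0.122), LCX replicate 2 (0.1) or HCX replicate 2 (0.072) or 3 (0.0889). The lower genes, named after their values were seen, were Snai2 against DMSO (-0.62, adjusted p = 0.0387) and Zeb2 against LCX (-0.17, adjusted p = 0.0442). Snai2 kept its call in 8 of 18 alternatives (adjusted p = 0.165 without DMSO replicate 2, 0.133 without HCX replicate 1) and Zeb2 in 11 of 18 (0.2 without HCX replicate 3, 0.147 without LCX replicate 3). Sox2, Pou3f2 and Twist1 were under 3 in every library. For the 6 lists from cytolinkers to transcription factors, the median log2 fold change against DMSO was -0.115, -0.041, 0.004, -0.071, -0.079 and -0.054 in the order described, beside -0.041 over all genes tested. Against LCX it was -0.130, -0.049, 0.042, 0.031, -0.033 and -0.002, beside 0.00 over all genes. LCX against DMSO gave 0 called genes in each of these lists, by limma, as it did over all 13179 genes.

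**Figure D5:**
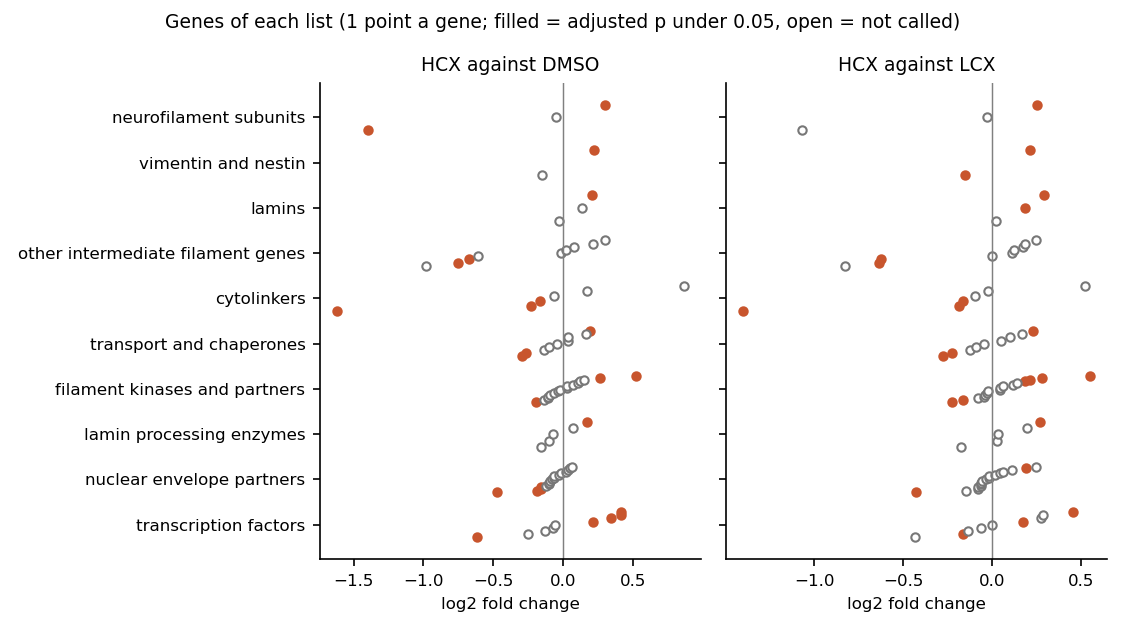
Log2 fold changes of the tested genes in each related list, for HCX against DMSO and HCX against LCX, with called genes marked. Eppk1 at -1.62 and Syne1 at -0.47 are the lowest values of their lists against DMSO.

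For each of the 6 genes called in an HCX comparison, the 2 genes with the nearest profile over the 9 libraries were found by the root mean square difference of log2 values, each centred on the mean of its gene. For Ina they were Pygb, a glycogen phosphorylase gene, and Tmsb10, a thymosin gene, both at a difference of 0.04, beside a spread of Ina of 0.14. For Vim they were Ube2j1, a ubiquitin-conjugating enzyme gene (0.02), and Rab2b, a small GTPase gene (0.03), beside 0.12. For Nes they were Inpp5b, an inositol polyphosphate phosphatase gene (0.02), and Harbi1 (0.03), beside 0.09. For Lmnb1 they were Stox2 (0.03) and Mbd3, a chromatin protein gene (0.04), beside 0.10. For Lmnb2 they were Pmvk, a mevalonate pathway kinase gene (0.03), and Zkscan2, a zinc finger gene (0.04), beside 0.15. For Nefm they were Astn2 (0.28) and Soat2, a sterol acyltransferase gene (0.30), beside 0.70, so that the likeness was looser for Nefm than for the others.

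Markers of cell types that a culture could hold are given beside these values. The summed level of 9 noradrenergic neuroblast markers was 28986 to 30313 normalized counts in HCX, 23377 to 24951 in DMSO and 23523 to 25104 in LCX. Of its 8 tested genes 2 were higher in HCX, Hand2 (0.52, adjusted p = 6.58e-07) and Phox2a (0.34, adjusted p = 0.000172). Hand2 averaged 14065 in HCX and 9787 in DMSO, and Phox2a 6119 and 4830. Against DMSO, 6 of the 8 had a log2 fold change above 0 and 2 below. Gata2 was 1 of the lower, at 6064 in HCX and 6605 in DMSO (-0.12, adjusted p = 0.0578 by limma, uncalled). Over all genes, 5.73% were called higher against DMSO and 13.5% lower. The defining enzyme genes Th and Dbh were low and uncalled (adjusted p = 0.92 and 0.927). The neuron list summed to 48713 to 51044 in HCX and 50216 to 54684 in DMSO, with Gap43, a growth cone protein gene, at -0.68 (adjusted p = 1.71e-06) as its 1 called gene of 6 tested.
The neural progenitor list, to which Nes would belong by function, summed to 2461 to 2548 in HCX and 2505 to 2682 in DMSO, with Pax6 lower (-0.23, adjusted p = 0.0247, a call kept in 10 of 18 alternatives and lost without HCX replicate 3 at 0.11) and Sox2 and Fabp7 under 3 in every library. The mesenchymal list, which does not hold Vim, summed to 2592 to 3435 in HCX, 3508 to 3776 in DMSO and 3734 to 4158 in LCX, with Dcn at -0.79 (adjusted p = 0.000598) and Col1a2, Col3a1 and Lum under 3. The glial list summed to 725 to 811 in HCX and 728 to 830.4 in DMSO with 0 of 3 called. The epithelial list summed to 5.06 to 11.5 in HCX and 8.17 to 15.9 in DMSO, with Epcam, Krt5 and Krt14 under 3. The immune and endothelial list summed to 163 to 226 in HCX and 255 to 268 in DMSO, with Pecam1 at -0.44 (adjusted p = 0.0375, a call kept in 6 of 18 alternatives and lost without HCX replicate 3 at 0.141). The part of these markers in the values of Ina, Vim, Nes and the lamins was not tested.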

How the data were processed

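RNA of 9 Neuro2a libraries, 3 each of DMSO, LCX and HCX, was analysed, grouped by the sample titles. The authors deposited 1 table of signal values, normalized counts per gene and library. Per the labels, Bowtie, TopHat2 and Partek were used on mm10, and the versions, the annotation and the use of strand in counting are not given in the sources used here. The values do not step in whole reads, so no count model was run. 0 other columns of sample values were present, and 26 gene names had been turned into dates.

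A pseudocount of 1 was added before taking log2, and genes that reached 10 in 3 or more libraries were fitted with limma-trend (limma 3.58.1, R 4.3.3), with 1 term per group over all 9 libraries and Benjamini-Hochberg adjustment within each comparison. The fit was also run on simulated whole counts, which differ in kind from the deposited values, so no conclusion on its accuracy here is drawn from that run. Intervals are at 95%, with 6 residual and 13.8 prior degrees of freedom. The precision rests on 3 libraries per group, and the median interval over all genes spans 0.153 on the log2 scale to either side. Lengths, positions and overlaps came from GENCODE vM21 on GRCm38 and promoter windows from RefSeq on GRCm38.p6. At most 1.41% of the 31-base stretches of any of the 9 genes occur in another gene. Alternatives were RLE, library size, limma-voom, no filter, at least 10 in every library, pseudocounts of 0.5 and 10, the 6 libraries compared, a replicate block, and leaving out each library.

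The 9 genes and all lists were chosen with earlier results of these data known. Named genes were all 9; at most 4 called genes of each related list, those with the lowest adjusted p (at most 2 by mean in a list without calls); and for each of the 9 called in HCX, the 2 genes of the nearest profile. Genes named outside this rule are Prph, Nt5c2, Sun2, Cdk5, Cdk5r1, Snai2, Zeb2 and the marker genes, chosen after their values were seen. A gene that the rule reached is not reported here. Python 3.11.15, numpy 2.4.6, pandas 2.3.3 and matplotlib 3.10.9 were used.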

Additional observations from a re-analysis of the deposited data

How the results depend on the processing

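Ina and Vim in both HCX comparisons and Lmnb2 against LCX kept direction and call under all 18 alternatives, while Lmnb1, Nefm, Nes and Lmnb2 against DMSO lost or gained a call under some. In HCX against DMSO the genes called lower over all genes were 1128 with RLE, 966 with library size and 930 with limma-voom, and those higher 1307 with library size and 1301 with limma-voom. Of the 9 genes, 0 were called lower against DMSO with limma-voom, and 0 to 2 when a library was left out. Against LCX, 0 were called lower with library size, limma-voom, no filter, the 6 libraries compared and the replicate block, and 0 to 1 when a library was left out. Genes called higher over all genes against LCX then ran from 645 to 1219 and those called lower from 729 to 1290. Between LCX and DMSO the 6 libraries compared gave 1 gene higher and 1 lower, the replicate block 2 higher and 1 lower, and leaving out a library 0 to 1 in each direction.

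Uncalled values changed sign. Against DMSO, Lmna in HCX was 0.0133 with RLE, 0.0292 with library size and limma-voom and -0.0654 to 0.0332 when a library was left out, and Nefh 0.0114 with library size and limma-voom. In LCX against DMSO, Nefh was 0.0257 with RLE, 0.0233 with library size and limma-voom. Leaving out a library gave -0.0553 to 0.0241 for Nefh, -0.0491 to 0.0583 for Nes, -0.0886 to 0.0100 for Lmna, -0.0234 to 0.0433 for Vim and -0.6117 to 0.0348 for Nefm. The cause was not tested. With the exon union as length, DMSO levels per kilobase were 4.69 for Nefm, 6004.6 for Vim, 717 for Nes, 1089.7 for Lmna, 1247.9 for Lmnb1 and 759.5 for Lmnb2, because the length is larger.

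Correlations did not settle whether replicate numbers in the titles pair the libraries. Of 9 same-number pairs, at -0.104 to 0.104, 1 was over 0.1, and other-number pairs ran from -0.073 to 0.074. For DMSO with HCX, same-number pairs were at 0.067, 0.104 and 0.086, and other-number pairs at -0.071 to -0.017. Same-number pairs of LCX with HCX were at -0.104, 0.000241 and 0.041, and those of DMSO with LCX at -0.029, 0.049 and 0.004. Beside the counts above, the replicate block ended the call of Nes against LCX (adjusted p = 0.0512). Nefm had no value with at least 10 in every library, since it did not pass that filter. The differences of Nes and Lmnb1, at 0.14 to 0.18 in size, were close to the median reach of the 95% interval over all genes, 0.153 on the log2 scale to either side. That median is not the interval of these genes, which ran from -0.26 to -0.04 for Nes in both HCX comparisons. For Lmnb1 it ran from 0.02 to 0.26 against DMSO and from 0.06 to 0.30 against LCX. These intervals are not adjusted for the number of genes tested.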
